A study of Homo sapiens with 9 samples.

Results

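The 30 genes described here are direct transcriptional targets of the tumour suppressor p53, taken by gene name from the deposited tables: 30 of the 30973 genes listed for ORF with NC, and 30 of the 31088 listed for MT with NC. They were followed through 9 RNA-seq libraries of HCT-116, a colon cancer cell line that retains wild-type p53, in 3 groups of 3. NC cells carried a blank vector. ORF cells had a stable insert of the LINC00266-1 reading frame, taken from an intergenic RNA from which a peptide is translated. For the libraries labelled MT, the description is of cells with the 5' UTR and this frame, its start codon mutated from ATG to ATT. All groups share the parental line and no stress or drug treatment is named for any of them. The labels do not say whether a group is 1 clone or a pool, nor whether replicates were grown separately; the p-values then cover the spread among these libraries alone, part or all of which may be technical.

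p53 is a DNA-binding transcription factor that is kept low by the ubiquitin ligase MDM2 and stabilised after DNA damage and other stress. It binds a pair of decamer motifs near its targets and raises genes that halt the cell cycle, repair DNA, limit oxidative damage or trigger apoptosis. Several targets, MDM2 and PPM1D among them, act back on p53 and shut the response down. Some members also have inducers other than p53. For example, SESN2 and PMAIP1 can be induced by ATF4, and TNFRSF10B by CHOP, the factors of the integrated stress response. Members not named here may have such inducers too.

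The libraries held 19.5 to 24.4 M reads assigned to genes. Reads of LINC00266-1 totalled 30490 in ORF and 1 in each of the other groups, so the libraries labelled MT go against their label, and every comparison with them below carries that limit. Reads of the pyruvate kinase gene PKM were also far higher in ORF, at 774367 to 1259953 normalised reads against 50077 to 56637 in NC. Changes in ORF that follow the reading frame and changes that follow PKM cannot be told apart. Of 8 markers fixed for a colon epithelial line, 7 are listed in both gene tables and were read in every group; CEACAM5 was not analysed here. Their summed level was 4746 to 5381 reads per M in NC, 4847 to 6419 in ORF and 4991 to 6624 in the libraries labelled MT. Summed blood markers stayed at or below 1.82 reads per M in every library; they were 1.18 to 1.82 in ORF and 0.442 to 0.528 in NC, and CD14 among them was 4.86-fold higher in ORF than in NC (limma adjusted p = 0.0209). PTPRC, CD3E and CD68 were not analysed here, being outside the genes shared by both tables. Summed fibroblast markers were 19.7 to 21.1 reads per M in ORF, with DCN and LUM at 0, against 23.2 to 29.4 in NC, and those of a kidney line 19.1 to 20.2 against 24.3 to 29.8. Hepatocyte markers, of which 2 of 4 were summed, were 1.93 to 2.20 in ORF and 2.21 to 3.42 in NC. For these 3 sums every ORF library lay below every NC library. All marker sums are per M of all assigned reads, PKM included. PKM reads totalled 2773533 in ORF and 175138 in NC, and their part in these sums was not tested. Of 4 fibroblast genes tested by limma, 0 passed. Their log2 fold changes in ORF against NC were -1.86 for COL3A1, -1.80 for COL1A2, -0.08 for COL1A1 and 0.07 for PDGFRB. Single hepatocyte genes differed in direction. ALB, outside the sum, was 3.04-fold higher in ORF than in NC, APOA1 1.49-fold higher and SERPINA1 1.21-fold lower (limma adjusted p = 0.284, 0.672 and 0.663). The part of any of these lists in the results below was not tested.

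One technical feature runs through all the values. Within the ORF group, the libraries differed in a way that followed base composition. Across the 30 members, the log2 difference of replicate 1 from the mean of the other ORF libraries correlated with transcript GC content. Pearson r was 0.895, a description over genes of the same libraries. Replicate 1 was the highest ORF library for 12 members with a median GC content of 58.6%. It was the lowest for 12 with a median of 40.7%. Replicate 2 of the libraries labelled MT showed the same pattern (r = 0.909). Replicate 1 was not the only ORF library to follow GC content. Over 15825 genes, deviations from the group mean correlated with it at 0.653, -0.572 and -0.228 in ORF replicates 1, 2 and 3. In NC replicates 1, 2 and 3 these correlations were 0.099, 0.327 and -0.354. Members ranged from 36.4% GC in RRM2B to 69.7% in BBC3. Values from a fit adjusted for GC content and length are also given for each member that this fit moves past the threshold, and for some others.

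**Figure D1:**
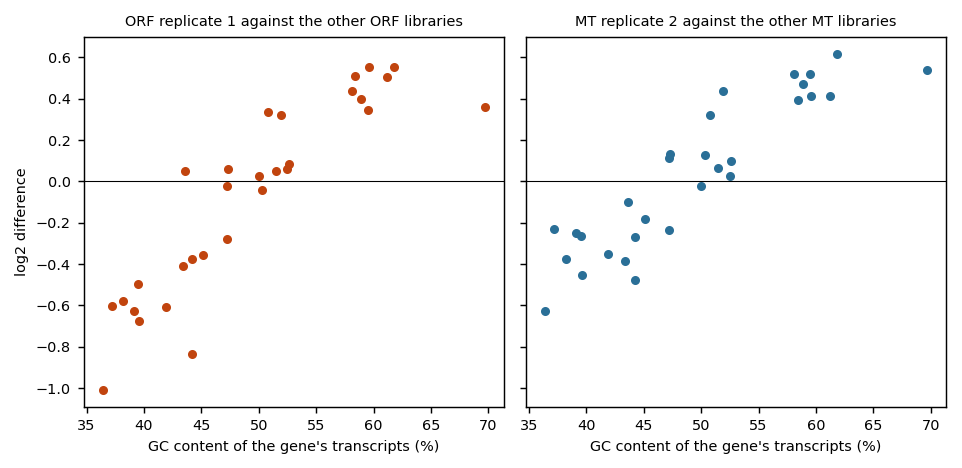
Log2 difference of 1 library from the mean of the other 2 of its group (vertical axis) against the GC content of each of the 30 p53 target genes in percent (horizontal axis), for ORF replicate 1 (left) and replicate 2 of the libraries labelled MT (right). In both panels GC-rich members lie mostly above 0 and GC-poor members mostly below, with r of 0.895 and 0.909.

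In NC the members spanned a wide range of levels. Per kilobase of gene model and M reads, CDKN1A was the highest at 122 ± 3.65 (SD, n = 3), followed by BAX at 37.9 ± 1.53, FDXR at 37.9 ± 0.529 and TRIAP1 at 37.2 ± 1.42, and these last 3 did not differ beyond their spread. CDKN1A encodes p21, the inhibitor of cyclin-dependent kinases. The lowest were SPATA18 at 0.0215 ± 0.0187, TIGAR at 0.520 ± 0.124 and FAS at 1.91 ± 0.117. SPATA18, a mitochondrial quality control gene, held at most 6.96 normalised reads in any library, so its fold changes are poorly determined.

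Promoter sequences from RefSeq (GRCh38.p14, from 250 bases before to 50 after the start site) were matched for 24 of the 30 members. They were searched for the decamer p53 motif (by its consensus), for a tandem of 2 decamers with a spacer of at most 13 bases, for the AP-1 site TGANTCA, for the cyclic AMP response element TGACGTCA and for TGATGNAA, the C/EBP-ATF composite element, on both strands. A p53 decamer was found in 3 members, AEN, FDXR and PLK2, and in 6.54% of 27305 promoters. The tandem was found in no member and in 0.0293% of promoters. The search allowed no mismatch and did not reach beyond the promoter window. It therefore cannot show that a member lacks a p53 site. The AP-1 site was in BBC3 and FAS (7.76% of promoters), the cyclic AMP element in PPM1D (1.98%) and the composite element in PLK3 (3.67%). The stretches of the members with a decamer, and those of PPM1D and PLK3, are shown because these genes are described below, with the motif in capitals and each read on the gene's own strand.
AEN, chr15:88621296-88621325: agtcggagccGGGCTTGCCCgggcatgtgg
FDXR, chr17:74872986-74873015: gggcaggagcGGGCTTGCCCtgcggagcag
PLK2, chr5:58460199-58460228: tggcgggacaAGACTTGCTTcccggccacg
PPM1D, chr17:60600121-60600150: agagagccgagTGACGTCAgcgggggagaa
PLK3, chr1:44800233-44800262: gagcttctgggTGATGTAAggccgggaatg
The decamers of AEN and FDXR share the same 10 letters and that of PLK2 differs from them. A match describes letters only.

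Between ORF and NC, 3 of the 30 members rose and 0 fell: GADD45A 3.21-fold, SESN2 2.37-fold and AEN 1.89-fold (limma on log2 values, adjusted over 24662 genes). The background was 0.377% of all genes higher and 0.0405% lower. At an unadjusted p under 0.05, 17 members were higher, where 8.06% of all genes were, and 1 was lower, where 7.62% were. In 18 members every ORF library lay above every NC library, and this held for 11.5% of all genes; in 1 member, ZMAT3, every ORF library lay below, as in 10.1%. The median log2 fold change of the 30 members was 0.39, and that of all genes tested was -0.04. By library, the members' median difference from the NC mean was 0.40, 0.28 and 0.48 in the 3 ORF libraries and between -0.05 and 0.04 in NC.

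The number of members that pass depends on the fit. With GC content and length adjusted, 16 members passed, all of them higher, against 7.72% of all genes. edgeR called the same 3 genes (0.596% of all genes). DESeq2 called 9 (2.29%), adding PPM1D, BTG2, PLK3, CDKN1A, PMAIP1 and PLK2. The authors' deposited table gives these 9 an adjusted p under 0.05 (1.80% of its genes). It comes from the same libraries, and its rounded log2 fold changes for these 9 equal those of DESeq2. It is therefore not separate evidence. Without any 1 of the 3 NC libraries, or without ORF replicate 3, only GADD45A passed, with 24 to 36 calls over all genes. Without ORF replicate 1, 12 members passed, all higher, where 3.57% of all genes did. Without ORF replicate 2, 12 passed, of which CCNG1 was lower, where 6.42% of all genes did. In these bulk samples, fewer cells with a transcript and less of it per cell cannot be told apart.

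**Figure D2:**
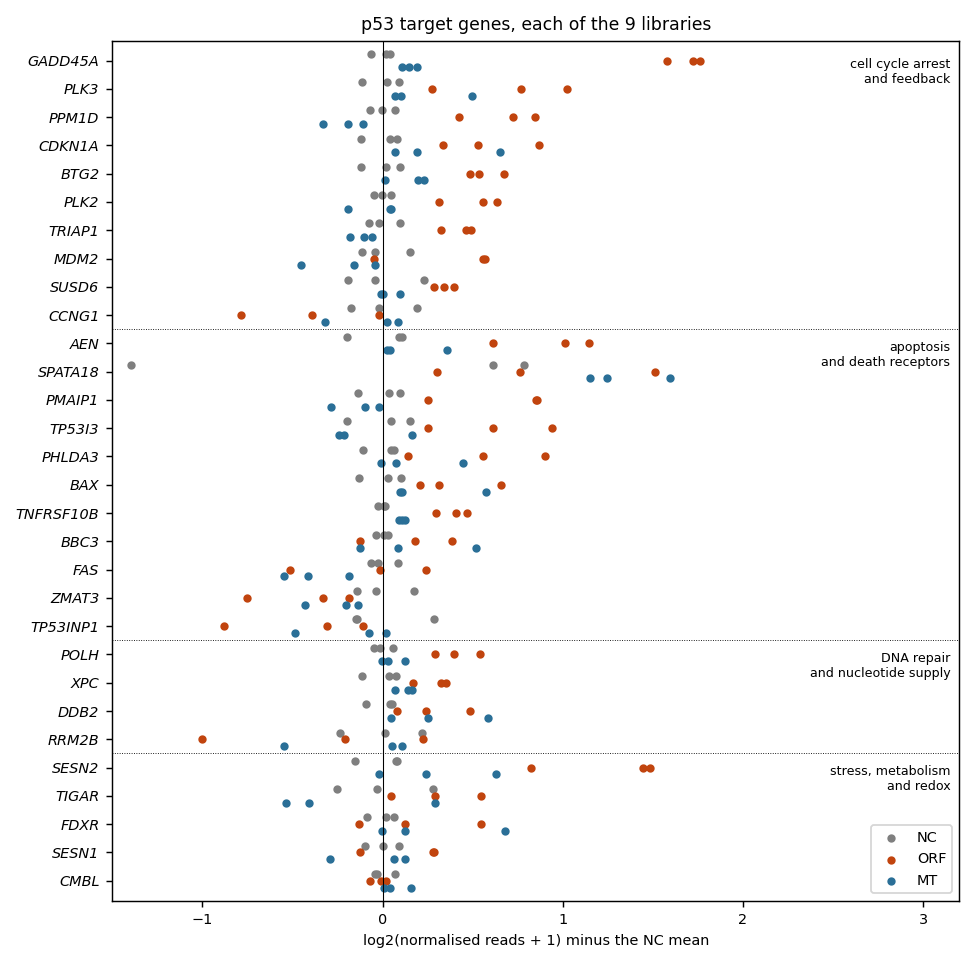
Log2(normalised reads + 1) of each p53 target gene minus its NC mean (horizontal axis) in all 9 libraries, 1 point per library, by role and, within a role, by the difference between ORF and NC. All 3 ORF points of GADD45A, SESN2 and AEN lie to the right of every NC point. Those of CCNG1, ZMAT3 and TP53INP1 spread to the left, and those of RRM2B to both sides.

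Among the 10 genes of cell cycle arrest and p53 feedback, 1 rose in ORF and the median log2 fold change was 0.53. GADD45A (ENSG00000116717, GRCh38 chromosome 1, 67685061 to 67688338, plus strand) encodes a small protein that binds PCNA and p21 and activates stress kinase signalling. It held 1469, 1491 and 1388 normalised reads in NC, 4776, 4319 and 4922 in ORF, and 1562, 1653 and 1603 in the libraries labelled MT. The ORF libraries were all about as high as each other and far above both other groups. Its log2 fold change was 1.68 ± 0.12 (SE, n = 3 per group; limma adjusted p = 5.15e-05). It passed in all 18 alternative fits, with values from 1.56 to 1.74.

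CDKN1A (ENSG00000124762, chromosome 6, 36676460 to 36687339, plus strand) held 7655, 7858 and 6836 normalised reads in NC and 13554, 9370 and 10724 in ORF. The libraries labelled MT held 8497, 11663 and 7800. The ORF libraries lay above NC without overlap, but replicate 1 of ORF and replicate 2 of the libraries labelled MT, those that ran high for GC-rich genes, were each the highest of their group. In ORF against NC the log2 fold change was 0.57 ± 0.15 (limma adjusted p = 0.128), and 0.43 with adjusted p = 0.00364 once GC content and length were adjusted.

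MDM2 (ENSG00000135679, chromosome 12, 68808176 to 68850686, plus strand), the ubiquitin ligase that degrades p53, held 2095, 1995 and 2395 normalised reads in NC and 2086, 3167 and 3193 in ORF. In the libraries labelled MT it held 2091, 1577 and 1935. ORF replicates 2 and 3 lay above every NC library and replicate 1 lay within them. The fitted log2 fold change was 0.36 ± 0.17 (limma adjusted p = 0.341). With GC content and length adjusted it was 0.57, past the threshold (adjusted p = 0.00191).

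PPM1D (ENSG00000170836, chromosome 17, 60600183 to 60666280, plus strand) encodes WIP1, the phosphatase that reverses damage signalling. It held 828, 785 and 752 normalised reads in NC, 1059, 1301 and 1416 in ORF and 690, 626 and 732 in the libraries labelled MT. The 3 groups did not overlap, ORF being highest and MT lowest. Against NC, the log2 fold change in ORF was 0.66 ± 0.14 (limma adjusted p = 0.0720), which misses the threshold; it was 0.66 with adjusted p = 0.00152 once GC content and length were adjusted.

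PLK3 (ENSG00000173846, chromosome 1, 44800225 to 44805990, plus strand), a stress-activated kinase of the polo family, held 848, 887 and 770 normalised reads in NC and 1697, 1009 and 1420 in ORF. In the libraries labelled MT it held 895, 1178 and 876. Its log2 fold change was 0.69 ± 0.18 (limma adjusted p = 0.121), and 0.55 with adjusted p = 0.00397 once GC content and length were adjusted. The ORF libraries lay above NC but differed among themselves by more than NC did. The antiproliferative gene BTG2 (0.56), the kinase gene PLK2 (0.50), TRIAP1 (0.42), which restrains the apoptosome, and SUSD6 (0.34) had every ORF library above NC. They did not pass in the limma fit of all ORF and NC libraries. With GC content and length adjusted, BTG2 (0.45, adjusted p = 0.00848), PLK2 (0.42, 0.0147) and TRIAP1 (0.46, 0.0163) passed and SUSD6 (0.28, 0.136) did not. CCNG1, which encodes cyclin G1, was the exception in this role, with a log2 fold change of -0.40 ± 0.18 (limma adjusted p = 0.323).

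**Figure D3:**
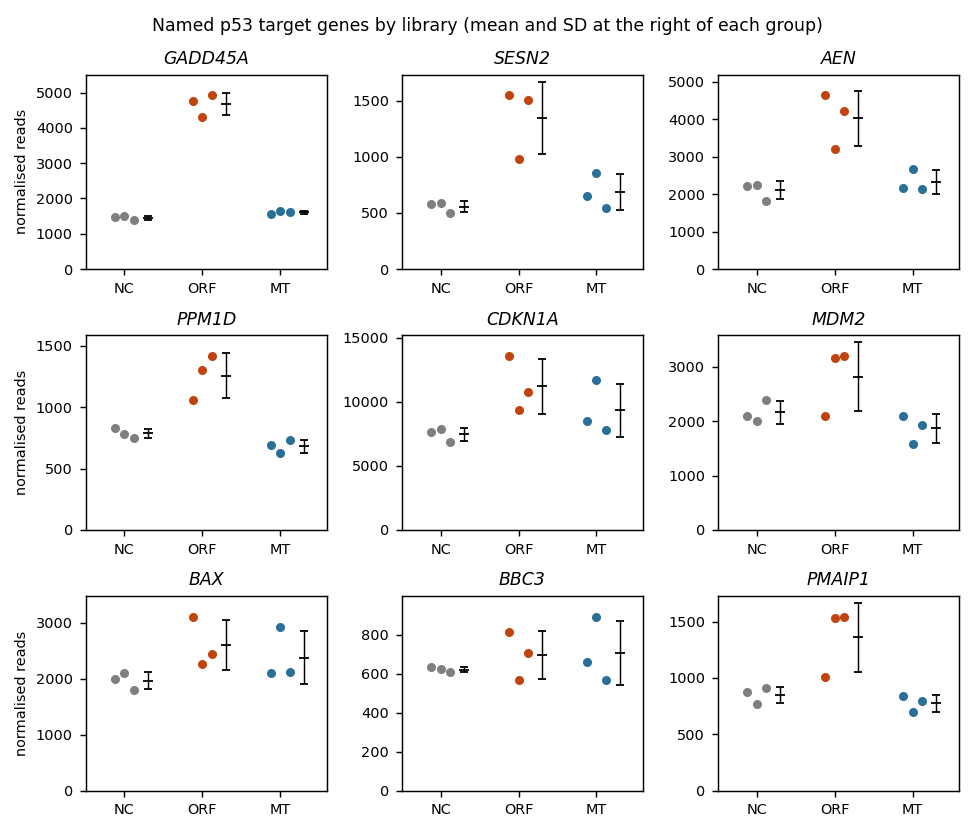
Normalised reads (vertical axis, from 0) of 9 named p53 target genes in the 3 libraries of NC, ORF and MT; points are libraries, and the bar to the right of each group gives the mean and SD. GADD45A, SESN2, AEN, PPM1D, CDKN1A, BAX and PMAIP1 have ORF points above every NC point, while MDM2 and BBC3 overlap.

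Of the 11 genes of apoptosis and death receptors, 1 rose in ORF and the median was 0.39. AEN (ENSG00000181026, chromosome 15, 88621296 to 88632282, plus strand), a nuclease that enhances apoptosis, held 2227, 2252 and 1829 normalised reads in NC, 4638, 3206 and 4219 in ORF and 2158, 2682 and 2131 in the libraries labelled MT. All ORF libraries lay above both other groups. In ORF against NC the log2 fold change was 0.92 ± 0.16 (limma adjusted p = 0.0299). AEN passed in 14 of 18 alternative fits, failing without any 1 NC library and without ORF replicate 3.

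No BCL2 family member passed in ORF by limma with all libraries kept and values not adjusted for GC content. BAX (ENSG00000087088, chromosome 19, 48954815 to 48961798, plus strand), which permeabilises the outer mitochondrial membrane, held 2005, 2110 and 1798 normalised reads in NC and 3105, 2270 and 2443 in ORF. In the libraries labelled MT it held 2104, 2923 and 2119. The fitted log2 fold change was 0.39 ± 0.14 (limma adjusted p = 0.237), and ORF lay above NC without overlap. With GC content and length adjusted it was 0.28, past the threshold (adjusted p = 0.0319).

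PMAIP1 (ENSG00000141682, chromosome 18, 59899948 to 59904306, plus strand) encodes NOXA, a BH3-only activator of apoptosis. It held 871, 773 and 908 normalised reads in NC, 1010, 1530 and 1539 in ORF and 838, 695 and 794 in the libraries labelled MT. ORF lay above both other groups, with replicate 1 the closest to them. Against NC, the log2 fold change in ORF was 0.65 ± 0.17 (limma adjusted p = 0.128), and 0.76 with adjusted p = 3.77e-04 once GC content and length were adjusted.

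BBC3 (ENSG00000105327, chromosome 19, 47220822 to 47232766, minus strand) encodes PUMA, the other BH3-only target. It held 634, 625 and 607 normalised reads in NC, 813, 570 and 705 in ORF and 660, 891 and 570 in the libraries labelled MT. The groups overlapped, and the log2 fold change in ORF was 0.14 ± 0.15 (limma adjusted p = 0.667).

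Neither death receptor gene passed by limma with all libraries kept and values not adjusted for GC content. TNFRSF10B, which encodes the TRAIL receptor DR5, held 2932 to 3003 normalised reads in NC and 3660 to 4114 in ORF, a log2 fold change of 0.39 ± 0.12 (limma adjusted p = 0.164). It was 0.31 with adjusted p = 0.0217 once GC content and length were adjusted, and TNFRSF10B also passed without ORF replicate 1 or 2. FAS (ENSG00000026103, chromosome 10, 88990582 to 89015785, plus strand) held 173, 156 and 160 in NC, 114, 193 and 161 in ORF and 122, 111 and 143 in the libraries labelled MT. Its ORF and NC libraries overlapped, with a log2 fold change of -0.10 ± 0.21.

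Of the other genes in this role, TP53I3, a quinone oxidoreductase gene, had a log2 fold change of 0.60 ± 0.19 and PHLDA3, an inhibitor of AKT, 0.53 ± 0.17. Each had every ORF library above NC, and neither passed in the limma fit of all ORF and NC libraries. With GC content and length adjusted both passed, at 0.46 (adjusted p = 0.0389) and 0.39 (adjusted p = 0.0185). ZMAT3, an RNA-binding zinc finger gene, was at -0.42 ± 0.17 and TP53INP1, a stress protein gene that promotes autophagy and cell death, at -0.43 ± 0.21. SPATA18 (ENSG00000163071, chromosome 4, 52051331 to 52097292, plus strand) held 3.02, 3.53 and 0 normalised reads in NC, 2.24, 6.50 and 3.46 in ORF and 6.96, 4.84 and 5.23 in the libraries labelled MT. Its ORF and NC libraries overlapped, with a log2 fold change of 0.84 ± 0.66 that rests on these few reads.

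None of the 4 genes of DNA repair and nucleotide supply passed in ORF by limma, edgeR or DESeq2, and their median was 0.27; POLH and XPC had an unadjusted limma p under 0.05. POLH, the polymerase that copies past ultraviolet lesions, held 721, 706 and 759 normalised reads in NC and 958, 893 and 1061 in ORF (log2 fold change 0.41 ± 0.13, limma adjusted p = 0.179; 0.0370 with GC content and length adjusted). The nucleotide excision repair genes XPC and DDB2, which recognise damage, had values of 0.28 ± 0.13 and 0.27 ± 0.14. RRM2B, the p53-inducible subunit of ribonucleotide reductase, was at -0.33 ± 0.26, with 521, 1220 and 901 normalised reads in the ORF libraries around 1054, 885 and 1213 in NC.

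The 4 members at -0.33 or below, TP53INP1, ZMAT3, CCNG1 and RRM2B, had GC contents of 39.6%, 39.5%, 38.2% and 36.4%, and replicate 1 was the lowest ORF library for each. After adjustment for GC content and length their log2 fold changes were -0.29, -0.21, -0.31 and -0.16. The part of GC content in these values was not tested.

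Of the 5 genes of stress, metabolism and redox, 1 rose in ORF and the median was 0.18. SESN2 (ENSG00000130766, chromosome 1, 28259527 to 28282491, plus strand) encodes sestrin 2, a leucine sensor that restrains mTORC1. It held 583, 585 and 499 normalised reads in NC, 1549, 982 and 1512 in ORF and 655, 857 and 547 in the libraries labelled MT. ORF lay above both other groups, with replicate 2 nearest to them. Its log2 fold change was 1.25 ± 0.18 (limma adjusted p = 0.0125); with GC content and length adjusted it also passed (adjusted p = 5.74e-05). SESN2 passed in 14 of 18 alternative fits, failing without any 1 NC library and without ORF replicate 3.

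Its paralogue SESN1 held 233, 204 and 219 normalised reads in NC and 200, 265 and 266 in ORF, which overlap (log2 fold change 0.14 ± 0.17, limma adjusted p = 0.705). FDXR (ENSG00000161513, chromosome 17, 74862497 to 74873031, minus strand), the mitochondrial ferredoxin reductase gene, held 2778, 2863 and 2580 in NC, 4005, 2498 and 2989 in ORF and 2989, 4390 and 2737 in the libraries labelled MT. The ORF libraries lay on both sides of NC, with a log2 fold change of 0.18 ± 0.16, and 0.05 with GC content and length adjusted. TIGAR (ENSG00000078237, chromosome 12, 4307763 to 4354593, plus strand), which lowers glycolytic flux, held 40.3, 34.4 and 50.3 in NC, 42.6, 60.7 and 50.7 in ORF and 30.8, 28.1 and 50.6 in the libraries labelled MT, with overlap throughout. CMBL, a hydrolase gene, was at -0.02 ± 0.12.

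The rest of the pathway was read from 4 further lists, beside 0.377% of all genes higher and 0.0405% lower by limma. Of 25 tested genes of p53 and its regulators, 0 passed in ORF by limma, edgeR or DESeq2, 3 were higher and 3 lower at an unadjusted limma p under 0.05, and their median was -0.00. MDM4, the MDM2 partner that also inhibits p53, had a log2 fold change of -0.39 ± 0.14 in ORF against NC (limma adjusted p = 0.236). Of 42 other p53 targets tested, 4 rose and 0 fell, with a median of 0.23; among those that rose were ATF3 (6.63-fold), SERTAD1 (2.45-fold) and FOSL1 (2.26-fold). At an unadjusted limma p under 0.05, 18 of these targets were higher (8.06% of all genes) and 2 lower (7.62%); edgeR called 4 and DESeq2 10 (0.596% and 2.29% of all genes). ATF3 and FOSL1 encode factors that bind AP-1 or cyclic AMP elements. The 15 cell cycle genes that p21 lowers through the DREAM complex had 0 calls by limma, edgeR or DESeq2, 2 higher and 2 lower at an unadjusted limma p under 0.05, and a median of 0.07, with CDK1 at -0.46 ± 0.19 and MYBL2 at 0.41 ± 0.19.

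A list of 14 stress genes, drawn up around ATF4 and CHOP, was read in the same libraries. It holds ATF4 itself, and also HSPA5 and XBP1. Of the 14, 4 rose in ORF and 0 fell by limma, and 10 were higher and 0 lower at an unadjusted p under 0.05. edgeR called 5, HSPA5 among them, and DESeq2 8, with HSPA5, XBP1 and ATF4 among them. The median was 0.53. ATF3 and DDIT4 of this list also stand among the other p53 targets. DDIT3, which encodes CHOP, rose 4.20-fold, PPP1R15A 3.40-fold and CHAC1 2.69-fold, beside ATF3. DDIT3 held 134, 133 and 117 normalised reads in NC, 566, 440 and 637 in ORF and 125, 132 and 122 in the libraries labelled MT. The part of these genes in the values of the p53 targets was not tested.

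Between the libraries labelled MT and NC, 0 of the 30 members passed, and 0 of 25310 genes did by limma, with 3 members (4.67% of all genes) at an unadjusted p under 0.05. edgeR called 0 genes. It gave 3 members an unadjusted p under 0.05, for which no share over all genes is given here. DESeq2 called 0 members and 1 gene (0.00395%), and the authors' deposited table likewise 0 members and 1 gene (0.00322%). The median log2 fold change was 0.06, with 0.01 for all genes. The 3 libraries lay above NC in GADD45A, SPATA18 and TNFRSF10B (5.70% of all genes) and below it in FAS and PPM1D (6.72%). GADD45A was at 0.15 ± 0.10, SESN2 at 0.29 ± 0.15, AEN at 0.15 ± 0.13 and PPM1D at -0.20 ± 0.11 (limma adjusted p = 0.744 to 0.750). CDKN1A was at 0.31 ± 0.15, which moved to 0.16 with GC content and length adjusted. This comparison and that of ORF with NC share the NC libraries. The lists of regulators, other targets, DREAM genes and stress genes also had 0 calls by limma, edgeR or DESeq2. At an unadjusted limma p under 0.05 the other targets had 4 genes higher and 1 lower, the stress genes 3 and 1, and the regulators and DREAM genes 0. Their medians were -0.13, 0.11, 0.03 and 0.10 in that order of regulators, other targets, DREAM genes and stress genes.

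**Figure D4:**
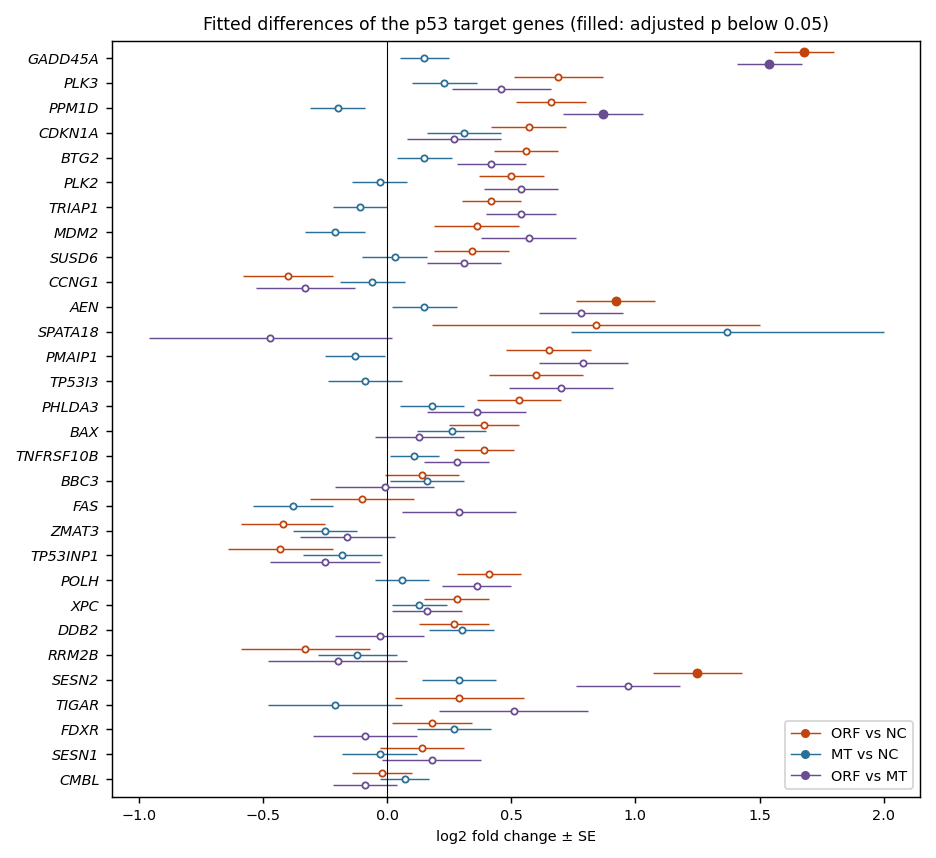
Log2 fold change with its SE (horizontal axis) of each p53 target gene in the 3 comparisons; filled points passed the adjusted p threshold of 0.05 over all genes. GADD45A is filled against both NC and MT, SESN2 and AEN against NC, PPM1D against MT, and no point of MT against NC is filled.

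Set directly against the libraries labelled MT, ORF had 2 members higher and 0 lower, where 0.266% of all 24404 genes were higher and 0.0983% lower. GADD45A was 2.90-fold higher (log2 fold change 1.54 ± 0.13, limma adjusted p = 5.08e-04) and passed in all 18 alternative fits. PPM1D was 1.83-fold higher (0.87 ± 0.16, adjusted p = 0.0460), passing in 10 of 18; of the fits that leave out a library it passed only without ORF replicate 1. SESN2 (0.97 ± 0.21, adjusted p = 0.0968), PMAIP1 (0.79 ± 0.18, 0.109) and AEN (0.78 ± 0.17, 0.0933) missed the threshold. DESeq2 called 6 members (1.73% of all genes) and edgeR the same 2 (0.430%). By unadjusted limma p under 0.05, 12 members were higher (5.81% of all genes) and 0 lower (7.28%). In 13 members every ORF library lay above every one labelled MT (9.88% of all genes), and in 0 below (9.60%). The members' median was 0.30, with -0.03 for all genes. With GC content and length adjusted, 12 members were higher and CCNG1 was lower (-0.38, adjusted p = 0.0285), 13 in all against 6.86% of all genes. Of the other lists, ATF3 rose by limma among the other p53 targets (4.91-fold) and ATF3, DDIT3 and PPP1R15A among the stress genes. The regulators and DREAM genes had 0 calls by limma, edgeR or DESeq2. At an unadjusted limma p under 0.05, 11 of 43 other targets were higher and 1 lower. Of 14 stress genes 8 were higher and 0 lower, 1 regulator was higher and 1 lower, and DREAM genes had 0. Among the other targets edgeR called 1 and DESeq2 7, and among the stress genes 4 and 5.

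Splicing of the members was read from tables of 5 event types: alternative 5' and 3' sites, retained introns, exons that are skipped, and pairs of exons that exclude each other. The inclusion level is the share of the longer form, from 0 to 1, after division of the reads of each form by its effective length. The tables list 173 events in 26 members for ORF with NC and 128 in 25 for MT with NC. Of these, 47 and 35 events, each in 14 members, had recoverable reads, a mean of at least 20 in each group and an overall level between 0.05 and 0.95, and were tested. The 3 libraries of a group are not numbered in these tables, so the values below follow the order in the files.

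None of the 47 events passed in ORF against NC, where 7 of 23215 events did (0.0302%), at an adjusted p under 0.05 and a level difference of at least 0.05. By unadjusted p, 11 events were under 0.05, where 8.28% of all events were, and 8 of the 11 had lower inclusion in ORF. They lay in BAX, DDB2, FDXR, GADD45A, ZMAT3, RRM2B and MDM2, with the most in FDXR. Events of the same gene can share reads, so these are not independent changes. The authors' deposited tables give 13 member events an FDR under 0.05 for ORF, 10 with lower inclusion, and 5 for MT, out of 173 and 128; of all deposited events, 6.30% and 5.12% had one.

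The event with the smallest unadjusted p among the members in ORF against NC was a skipped exon of FDXR, and its junctions are shown because they tell the forms apart. It covers chromosome 17, 74864480 to 74864564 on the minus strand, is 85 bases long and wholly coding, and is exon 8 of 12 in a GENCODE 29 transcript. Its length is not a multiple of 3. Exon letters are in capitals and flanking exons in lower case, 5' to 3'.
FDXR, upstream exon to the skipped exon: gccttcaccattaagGAGCTTCGGGAGATG
FDXR, skipped exon to the downstream exon: AGGACAAGATCAAGGaggtcccccgcccga
FDXR, skipping: gccttcaccattaagaggtcccccgcccga
Its inclusion level was 0.979, 0.976 and 0.978 in NC, 0.876, 0.874 and 0.884 in ORF, and 0.981, 0.998 and 0.979 in the libraries labelled MT. Skipping was supported by 9, 13 and 10 reads in NC, 70, 45 and 49 in ORF and 9, 2 and 11 in the libraries labelled MT, beside 490 to 1318 reads of inclusion. All ORF libraries lay below all others, by more than the spread within groups. The difference from NC was -0.0998 in level and -2.56 ± 0.33 in log2 odds (limma adjusted p = 0.150), which misses the threshold. With the prior spread of the model trended on the reads of the rarer form, a choice made after the first fit was seen, the adjusted p was 0.00954 (0.280% of all events passed), and with a mean of at least 50 reads in each group it was 0.0371. The authors' deposited table gives an FDR of 1.58e-05. Against the libraries labelled MT the level was lower by a difference of -0.108 (limma adjusted p = 0.372, and 0.157 with the trended spread).

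Transcripts of FDXR that skip this exon also join the next exon at 2 alternative 3' sites, 2 bases apart. Use of the upstream site was 0.390, 0.572 and 0.574 in NC, 0.802, 0.848 and 0.765 in ORF and 0.681, 0.264 and 0.616 in the libraries labelled MT. The upstream site was read 70, 51 and 56 times in ORF and 11, 19 and 15 times in NC, and the downstream site 17, 9 and 17 times in ORF and 17, 14 and 11 times in NC. The ORF libraries lay above all others. The difference was 0.293 (log2 odds 1.96 ± 0.41, limma adjusted p = 0.334). The junction of the upstream site is also the one that marks skipping of the exon, so the 2 events share reads.

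BAX had the largest skipped exon difference in ORF. The exon covers chromosome 19, 48955548 to 48955599 on the plus strand, 52 bases, wholly coding and not a multiple of 3, and is exon 2 of 5 in a GENCODE 29 transcript.
BAX, upstream exon to the skipped exon: agcccagaggcggggGGCCCACCAGCTCTG
BAX, skipped exon to the downstream exon: CCTTTTGCTTCAGGGgatgattgccgccgt
BAX, skipping: agcccagaggcgggggatgattgccgccgt
Inclusion was 1.00, 0.904 and 1.00 in NC, 0.728, 0.648 and 0.681 in ORF and 1.00, 0.578 and 0.850 in the libraries labelled MT. Skipping reads were 0, 4 and 0 in NC, 23, 27 and 24 in ORF and 0, 40 and 8 in the libraries labelled MT. ORF lay below NC without overlap, while the libraries labelled MT spread across both. The difference from NC was -0.283 in ORF (log2 odds -4.19 ± 0.97, limma adjusted p = 0.382) and -0.159 in the libraries labelled MT (adjusted p = 0.955). The authors' deposited tables give FDRs of 3.93e-65 and 1.28e-137 for these, the smaller for the comparison in which the libraries disagreed most.

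The third largest difference in ORF was an alternative 3' site of DDB2 on chromosome 11, where the longer form of an exon, 47234757 to 47235412, starts at the upstream of 2 sites. Its level was 0.907, 0.963 and 0.806 in NC, 0.750, 0.695 and 0.614 in ORF and 0.960, 1.00 and 0.895 in the libraries labelled MT. ORF lay below both other groups, on 15 to 26 reads of the short form against 2 to 9 in NC. The difference from NC was -0.205 (log2 odds -2.04 ± 0.65, limma adjusted p = 0.457).

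GADD45A, the member with the largest rise in level, also had a skipped exon with lower inclusion in ORF; it lies outside the rule for named events and was chosen after its values were seen. The exon covers chromosome 1, 67686025 to 67686126 on the plus strand, 102 bases, a multiple of 3, wholly coding, and is exon 2 of 4 in a GENCODE 29 transcript.
GADD45A, upstream exon to the skipped exon: gcagaagaccgaaagGATGGATAAGGTGGG
GADD45A, skipped exon to the downstream exon: CAAGCTGCTCAACGTcgaccccgataacgt
GADD45A, skipping: gcagaagaccgaaagcgaccccgataacgt
Inclusion was 0.937, 0.899 and 0.917 in NC, 0.834, 0.830 and 0.808 in ORF and 0.919, 0.914 and 0.920 in the libraries labelled MT. Skipping was read 25, 46 and 31 times in NC, 198, 181 and 223 times in ORF and 36, 41 and 38 times in the libraries labelled MT. All ORF libraries lay below all others.
The difference from NC was -0.0936 (log2 odds -1.25 ± 0.37, limma adjusted p = 0.526) and that from the libraries labelled MT -0.0939 (-1.24 ± 0.33, adjusted p = 0.451). With the trended spread these were adjusted p = 0.0825 and 0.0313.

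**Figure D5:**
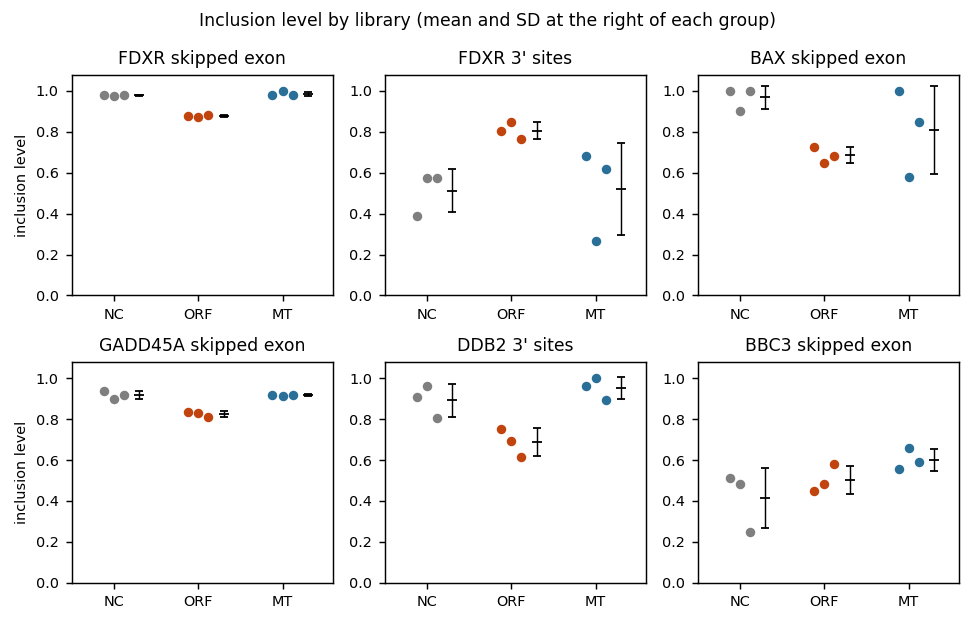
Inclusion level (vertical axis, 0 to 1) of 6 splicing events of p53 target genes in the 3 libraries of NC, ORF and MT; points are libraries in file order, and the bar to the right of each group gives the mean and SD. ORF points lie below every NC point for the exons of FDXR, BAX and GADD45A and the DDB2 3' site, and above for the FDXR 3' site, while BBC3 overlaps.

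In the libraries labelled MT against NC, 0 of the 35 member events passed, 0 had an unadjusted limma p under 0.05 (4.92% of all events), and 0 passed with the trended spread (0.00906%); 1 of 22076 events passed (0.00453%). The largest difference was in a BBC3 exon on chromosome 19, 47228158 to 47228446, with levels of 0.511, 0.483 and 0.246 in NC and 0.556, 0.660 and 0.589 in the libraries labelled MT (difference 0.188, limma adjusted p = 0.952). It was 0.449, 0.483 and 0.581 in ORF. The libraries labelled MT lay above NC, where 1 library was far below the other two. After the BAX exon came a pair of mutually exclusive exons of TNFRSF10B, whose level is the share of 1 exon of the pair. The libraries labelled MT gave 0.453, 0.508 and 0.445, NC gave 0.386, 0.446 and 0.346 and ORF gave 0.416, 0.416 and 0.472, with overlap between all groups (difference of MT from NC 0.0764, limma adjusted p = 0.997). The FDXR exon was too near full inclusion in both groups to be tested.

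Between ORF and the libraries labelled MT, 0 of 42 member events passed, where 17 of 19156 events did (0.0887%). By unadjusted limma p, 8 were under 0.05 (8.62% of all events). These lay in DDB2, FDXR, GADD45A, ZMAT3, MDM2 and RRM2B, some of them in the same gene. The largest differences were the DDB2 3' site (-0.265, limma adjusted p = 0.538), an exon of ZMAT3 on chromosome 3, 179071327 to 179071447 (0.170, adjusted p = 0.517), and the BAX exon (-0.124, adjusted p = 0.731). Inclusion of the ZMAT3 exon was 0.293, 0.216 and 0.408 for ORF, 0.183, 0.116 and 0.110 for the libraries labelled MT and 0.192, 0.131 and 0.123 for NC. These levels rest on 12 to 20 inclusion reads per ORF library. All ORF libraries lay above all others. With the trended spread 1 event, the GADD45A exon, passed (0.256% of all events).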

How the data were processed

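Total RNA of 9 HCT-116 samples, 3 per group by the sample labels, was made into Illumina libraries, per the labels. The submitters' processing notes name the builds GRCh 38 and hg 38; the sources used here name no aligner, counter, annotation or strand setting. In the authors' gene tables, 1 for ORF and 1 for MT, each library has a column of normalized signal beside log2 fold changes and p-values with adjusted p-values from an unnamed test. Their splicing tables hold other units per event, all deposited by the authors: reads of both forms, inclusion levels as a fraction from 0 to 1, their differences as a score and effective lengths. Each normalized column was a whole multiple of 1 step, so reads were recovered by division; 100% of the quotients were whole to within 0.1. NC reads were identical in all 29612 genes shared by both tables, no 2 libraries were identical, and 26 and 25 symbols held as dates were restored from gene IDs. Values printed per library are recovered reads over median-of-ratios factors of all 9 libraries.

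Genes with values of at least 1 in 3 or more libraries were tested with limma 3.58.1 (R 4.3.3, trended spread) on log2(value + 1), adjusted over all genes at 0.05. Fold changes are on that scale, which understates the change of low genes. ORF and MT were compared on the jointly scaled values. edgeR 4.0.16 and DESeq2 1.42.0 on recovered reads were alternatives. GC content came from GENCODE 29 transcripts.

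Splicing cells join 3 libraries by commas, some lost where numbers have 3 digits. Reads were recovered where only 1 split matched the deposited levels within 0.001, in 79.8% of events for ORF and 80.6% for MT; of the members' events, 112 of 173 and 100 of 128. Events with a mean of at least 20 reads in each group and an overall level between 0.05 and 0.95 were tested with limma on log2 odds (0.5 added to each form). Detection limits and all errors cover these libraries only.

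The 30 members, the gene lists, the motifs and the rule for named genes (members past the threshold, CDKN1A, MDM2, BAX, BBC3, PMAIP1 and GADD45A, the 5 largest changes in ORF, the 3 highest and 3 lowest per length; for splicing, called events, the FDXR exon and the 3 largest differences) were chosen with earlier results of these data known. Some genes that the rule names outside the 30 members are not reported here. The fits were also run on simulated reads, in which no difference between libraries by GC content was simulated. Those runs do not cover the GC differences described above, and their outcomes are not given here.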

Additional observations from a re-analysis of the deposited data

How the results depend on the processing

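For ORF against NC, the count of members past the threshold was 3, with 103 of all genes. It was 16 with GC content and length adjusted (1904 genes), 9 by DESeq2 (565), 5 with all 9 libraries in 1 fit (225), 15 with the replicate block and GC and length adjustment together (2081), and 1 to 12 with 1 library left out (24 to 1494). The members' median stayed between 0.33 and 0.45 over 18 alternatives. For MT against NC the members' count was 0 in all 18 alternatives, with medians from 0.04 to 0.11, while over all genes the replicate block gave 35 calls and the block with GC and length adjustment 76. For ORF against MT, the count of 2, with 89 of all genes, was 1 with a pseudocount of 0.5 (65 genes), with a filter of 10 (75) and with the replicate block (46). It was 13 with GC content and length adjusted (1675), 6 by DESeq2 (423), 7 with all 9 libraries in 1 fit (458), 10 with the replicate block and GC and length adjustment (828), 7 by edgeR on all 9 libraries (534; added after seeing the data) and 1 to 7 with 1 library left out (12 to 552). No call of a member changed direction in any alternative.

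Same-numbered libraries did not deviate together in every pair: between ORF and NC the correlations of their deviations were 0.135, -0.341 and 0.117. They were -0.107, 0.315 and 0.305 between MT and NC, and -0.375, -0.497 and 0.189 between ORF and MT. The numbers were therefore not taken as pairs; with the replicate block, 4 members and 301 genes passed in ORF against NC.

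For splicing, 1 member event, the FDXR exon, passed in ORF against NC with a mean of at least 50 reads in each group and with the trended spread, and 1, the GADD45A exon, in ORF against MT with the trended spread; both the trended spread and the ORF against MT comparison were added after seeing the data. Leave-one-out fits, run without the trended spread for ORF and for MT against NC, gave 0 member events. None was run with the trended spread or for ORF against MT. No paired analysis was possible for splicing because the libraries inside a cell carry no number, so the planned block was not run. The cause of these moves was not tested. Depth limits SPATA18, TIGAR and events with few reads of the rarer form.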
